A study of Mus musculus with 8 samples.

Results

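miR-21 was examined through 2 probes, mmu-miR-21 for the guide strand and mmu-miR-21* for the passenger strand of the same hairpin, of 1135 miRNA probes on the array. Both were chosen by their probe names and not by their values. Their level, their rank on each array and their change with diet were described in the livers of MCD-fed and control mice. The MCD group received a methionine- and choline-deficient diet and the control group a normal diet, with 4 arrays each and 1 channel read on every array. The mice were male C57BL/6N animals, young adult when feeding began, with no genetic alteration named. The labels give 23 weeks of diet for both groups, whereas the study's methods describe a shorter feeding period, so the duration is not settled here. The MCD diet produces steatosis, inflammation and fibrosis of the liver, but the animals typically lose weight too, which limits it as a model of human steatohepatitis. The labels do not say which mouse each liver came from, and p-values refer only to the variation among the 8 samples, which may in part be technical.

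A miRNA hairpin is cut into a duplex, of which the guide strand is kept by an Argonaute protein and the passenger strand is mostly degraded. The guide pairs with target messages mainly through its seed, bases 2 to 8. miR-21 is known for its induction by TGF-β/SMAD, STAT3 and AP-1 signalling, for its rise in fibrotic organs, and for targets such as Pdcd4, Spry1, Smad7 and, in hepatocytes, Ppara. It is made by many cell types, including hepatocytes, hepatic stellate cells and leukocytes. In whole liver, fewer cells of a type and less RNA per cell cannot be told apart.

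The array uses older names. mmu-miR-21 is now mmu-miR-21a-5p, and mmu-miR-21* is mmu-miR-21a-3p. The mature sequences of both strands are shown with those of the mouse miRNAs most like them, because a probe may also bind a near copy. They are taken from RefSeq (GRCm38.p6) and written 5′ to 3′, with the seed in capitals.
mmu-miR-21a-5p: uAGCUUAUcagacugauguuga
mmu-miR-21a-3p: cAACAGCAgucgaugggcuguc
mmu-miR-21b: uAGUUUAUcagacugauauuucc
mmu-miR-21c: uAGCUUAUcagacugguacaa
mmu-miR-3967: aGCUUGUCugacugauguug
mmu-miR-3965: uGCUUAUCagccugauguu
The 2 strands lie on the minus strand at chr11:86584120-86584141 (guide) and chr11:86584082-86584103 (passenger). Their gene, Mir21a (chr11:86584067-86584158), lies inside the span of the protein-coding gene Vmp1 (chr11:86583858-86683836), 209 bases from its lower end. The guide had 36.4% G and C and the passenger 59.1%. The guide seed AGCUUAU occurred in 2 mature mouse miRNAs of the table, miR-21a-5p and miR-21c, and the passenger seed AACAGCA only in miR-21a-3p.

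miR-21c shared its first 15 bases with the guide and differed by 5 edits in all. miR-21b also differed by 5 edits, of which C4U lay in the seed (positions counted from the 5′ end, guide base first). Neither had a probe of its own, and the probe sequences are not given in the sources used here, so the part of these copies in the miR-21 signal was not tested. miR-3967 and miR-3965 differed from the guide by 4 edits each and had their own probes. The mmu-miR-3967 probe lay below the negative control limit, the mean of the negative control spots plus 2 SD, on all 8 arrays. It read 233, 259, 270 and 260 intensity units in MCD, against 270, 239, 252 and 246 in control. Its log2 change was 0.18 ± 0.09 (SE), which did not pass (limma, adjusted p = 0.284). The mmu-miR-3965 probe read 209, 231, 229 and 221 in MCD, against 269, 384, 237 and 259 in control. It exceeded the limit set by the blank spots on 3 arrays, all of them control, and the negative control limit on 1, control 2, where it held rank 111 of 1135 by brightness. It was not tested. Apart from that array, both probes read close to background.

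The guide strand was bright in every liver. The spot intensity of mmu-miR-21 was 4012, 3718, 4261 and 2295 in MCD 1 to 4 and averaged 3572 ± 879 (SD, n = 4). In control 1 to 4 it was 3650, 3953, 3212 and 2895, with a mean of 3428 ± 467 (SD, n = 4). The MCD values included both the highest and the lowest of the 8 arrays, MCD 3 and MCD 4, so the groups overlapped. The intensity was 10.6 to 20.4 times the mean of the blank spots in MCD and 13.1 to 17.5 times in control. The difference in intensity did not exceed the spread between arrays (exact permutation test, two-sided, p = 0.771, adjusted p = 0.771 over 5 such tests, smallest possible p = 0.0286).

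The passenger strand was close to background. The spot intensity of mmu-miR-21* was 268, 251, 257 and 251 in MCD 1 to 4, with a mean of 256.8 ± 8.02 (SD, n = 4), against 267, 271, 287 and 242 in control 1 to 4, with a mean of 266.8 ± 18.6 (SD, n = 4). All MCD values lay inside the range of the control values. The spot was 1.15 to 1.32 times the blank mean in MCD and 1.10 to 1.33 times in control. It exceeded the blank mean plus 2 SD on 7 arrays, all but control 4, and the negative control limit on 1 array, MCD 1. Its intensities are therefore at the edge of what the array measures, and a change of the passenger strand could not be read with the precision of the guide (exact permutation test, two-sided, p = 0.343, adjusted p = 0.771).

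**Figure D1:**
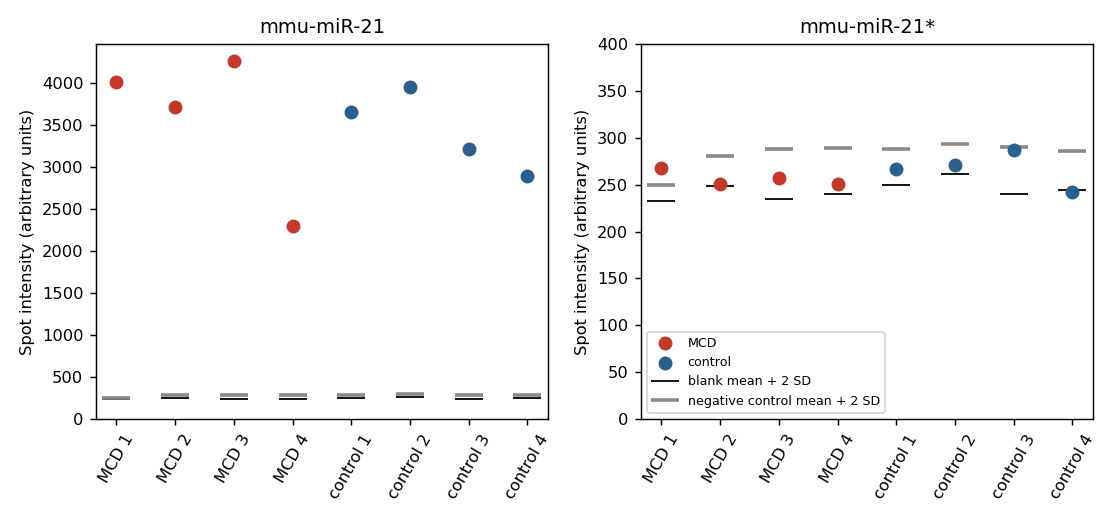
Spot intensity (arbitrary units, linear axis from 0) of mmu-miR-21 (left) and mmu-miR-21* (right) on each array, MCD in red and control in blue, with the blank limit (thin bar) and the negative control limit (thick bar) of that array. The guide strand lies far above both limits on all 8 arrays, whereas the passenger strand lies between them on most arrays and above the upper one on MCD 1.

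By brightness, the guide probe held rank 16, 11, 16 and 21 of 1135 in MCD 1 to 4, and rank 21, 14, 19 and 17 in control 1 to 4. Brightness depends on how well each probe binds as well as on the amount of its miRNA, so the ranks order spots and not abundances. The mean rank differed by -1.75 between the diets (MCD minus control, exact permutation test, two-sided, p = 0.543, adjusted p = 0.771). The passenger probe held rank 258.5, 762, 663.5 and 807.5 in MCD, against 620.5, 346.5, 250.5 and 1017 in control, with tied spots sharing a mean rank. These ranks spread widely although the intensities lay between 242 and 287 on all arrays, a narrow range that also held the median probe of most arrays (241 to 261 in MCD and 257 to 269 in control). The ranks did not differ beyond the spread between arrays (exact permutation test, two-sided, p = 0.743, adjusted p = 0.771).

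After background correction and quantile normalization, the log2 level of mmu-miR-21 was 11.72, 12.02, 11.72 and 11.48 in MCD, against 11.48, 11.84, 11.56 and 11.65 in control. Quantile normalization gives the same level to the same rank. The change of mmu-miR-21 was 0.10 ± 0.12 on the log2 scale (SE, limma, adjusted p = 0.718), with a 95% interval from -0.17 to 0.37. This is a fold of 1.07, with an interval from 0.887-fold to 1.29-fold. Of the 1076 tested probes, 635 changed more in absolute size. The change lay within the spread of the arrays, and the interval excludes a rise or fall of 2-fold under this processing.

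The log2 level of mmu-miR-21* was 7.20, 6.82, 6.89 and 6.85 in MCD, against 6.93, 7.10, 7.26 and 6.73 in control. Its change was -0.07 ± 0.13 (SE, limma, adjusted p = 0.827), with a 95% interval from -0.35 to 0.22. On the linear scale the fold was 0.954, with an interval from 0.784-fold to 1.16-fold, and 778 tested probes changed more. The background correction adds a constant that pulls changes of dim probes towards 0, so this interval understates the range of change of the passenger strand. Neither strand was among the 110 of 1076 tested probes that passed (10.2%), of which 62 were higher (5.76%) and 48 lower (4.46%) in MCD. Nor was either among the 162 probes whose groups did not overlap (15.1%).

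**Figure D2:**
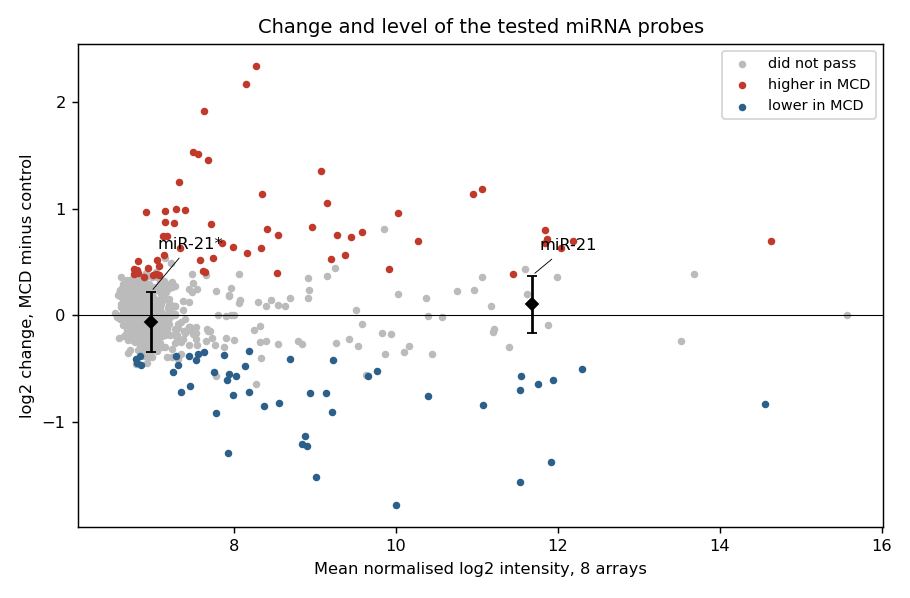
Log2 change (MCD minus control) against the mean normalised log2 level over 8 arrays for the 1076 tested probes, with probes higher in MCD in red, lower in blue and those that did not pass in grey. The 2 miR-21 strands are black diamonds with 95% intervals, and both intervals cross 0. The guide lies at 11.68 among bright probes, many of them changed, and the passenger at 6.97 in the dense cloud of dim probes.

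The guide strand was then read against probes of like brightness. Within 1 log2 unit of its mean level lay 27 other tested probes. Beside 5.76% higher and 4.46% lower of all tested probes, 8 of these were higher in MCD and 8 lower. Their median absolute change was 0.57 and their median SE 0.122, beside the SE of 0.125 for mmu-miR-21. By absolute change mmu-miR-21 was the 26th of these 28 probes, ahead of miR-22 (-0.09) and miR-16 (0.09). The count of 16 fell to 4 after blank subtraction and to 10 without control 1, and reached 19 under other settings. The 8 higher and 8 lower became 2 and 9 under spike control scaling, 3 and 8 under global scaling and 2 and 7 on the authors' values. With the negative control limit as the filter instead, 11 were higher and 8 lower. Of all 232 probes tested under that filter, 64 were higher and 51 lower. The 960 probes within the same distance of mmu-miR-21* held 33 higher and 19 lower ones, beside 62 higher and 48 lower among all 1076 tested probes.

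The closest neighbours in brightness behaved differently from each other. mmu-miR-194, which is abundant in hepatocytes and was the next brighter probe, read 3151, 2671, 3093 and 2357 in MCD, against 4855, 4826, 4404 and 3844 in control. Its groups did not overlap, and it fell by 0.65 ± 0.10 on the log2 scale (SE, limma, adjusted p = 0.00131), a call lost after blank subtraction. mmu-miR-26a, the next dimmer probe, read 3971, 2803, 4973 and 2499 in MCD, against 4093, 3239, 3286 and 2520 in control, with a change of 0.20 ± 0.12 (adjusted p = 0.397). Like mmu-miR-21, it overlapped between the diets and was low on MCD 4. The neighbours of mmu-miR-21*, miR-20a* and miR-568, had changes of 0.06 ± 0.09 and -0.04 ± 0.21 (adjusted p = 0.761 and 0.946).

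The strands were also compared within each array, which removes any factor common to the whole array. The log2 difference between mmu-miR-21 and mmu-miR-21* was 4.51, 5.20, 4.83 and 4.63 in MCD, against 4.55, 4.74, 4.30 and 4.92 in control. The size of this difference mixes probe binding with abundance, so only its change between diets was tested. It averaged 4.79 ± 0.30 in MCD and 4.63 ± 0.26 in control (SD, n = 4 each). The change was 0.17 ± 0.18 (SE, limma over hairpins, adjusted p = 0.611), with a 95% interval from -0.19 to 0.53. The exact permutation test of this single value gave p = 0.457 (two-sided, adjusted p = 0.771).

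Of 366 hairpins with both strands tested, 56 passed (15.3%), of which 39 moved towards the first strand (10.7%) and 17 away from it (4.64%). The change of the miR-21 hairpin was exceeded in absolute size by 203 of them. In 300 hairpins, that of miR-21 included, neither strand changed past the threshold. Only the first strand changed in 44, only the second in 18 and both in 4. The filter on negative controls left only 232 probes, so many strands counted here were dim. A dim strand that did not pass is not shown to be unchanged. The 4 hairpins with the smallest p were miR-200a (2.46 ± 0.21), miR-200b (1.90 ± 0.19), miR-376a (1.73 ± 0.18) and miR-326 (1.82 ± 0.19). In the first 3 the strand without the star rose. The star probes miR-200a*, miR-200b* and miR-376a* exceeded the negative control limit on 0 arrays, so a change of these strands could not be seen. In miR-326 the star strand fell by 1.78.

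**Figure D3:**
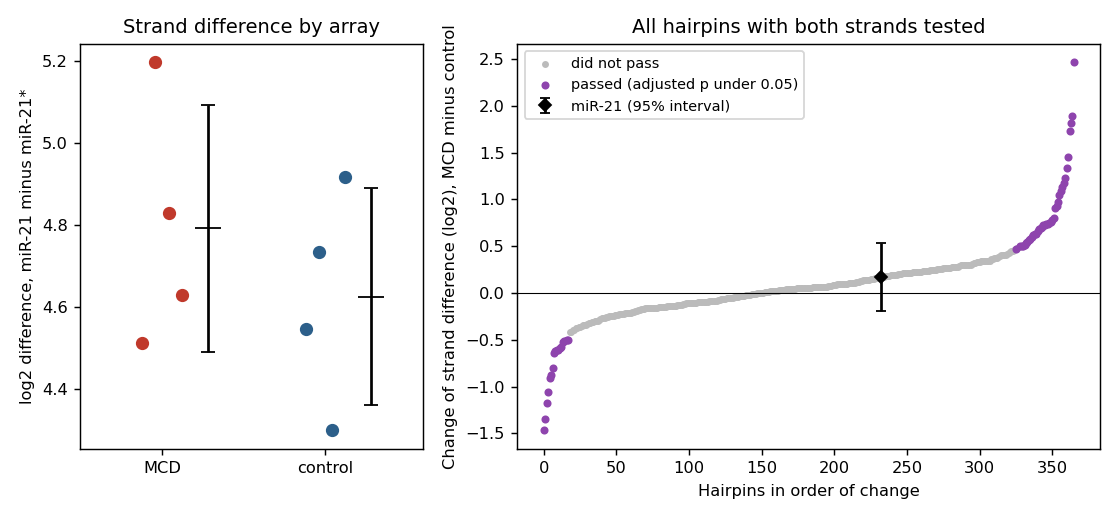
Left, log2 difference between the guide and passenger probes of miR-21 on each array, MCD in red and control in blue, with bars for mean and SD (n = 4 each; the axis does not start at 0). Right, the change of the strand difference (MCD minus control, log2) for 366 hairpins in order of size, with hairpins that passed in purple and miR-21 in black with its 95% interval, which crosses 0.

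miR-21 was next set beside other miRNAs known from liver injury and fibrosis. This list was chosen with earlier results of these data known. Over all tested probes 5.76% were higher and 4.46% lower. Of the 31 listed probes, miR-21 included, 12 were higher, 4 were lower and 15 did not pass. Their median change was 0.36, against -0.01 over all tested probes. Many of all tested probes were dim. With the filter on negative controls, 64 of all 232 tested probes were higher and 51 lower. Of the 30 listed probes then tested, 15 were higher and 4 lower. Among miRNAs of stellate cells and fibroblasts, the shared probe of mmu-miR-199a-3p, mmu-miR-199b read 1033, 884, 1785 and 649 in MCD, against 461, 472, 448 and 443 in control. It rose by 1.35 ± 0.17 (SE, limma, adjusted p = 0.000243). miR-200a and miR-200b, epithelial miRNAs that repress Zeb1 and Zeb2, rose by 2.34 ± 0.24 and 2.17 ± 0.21. mmu-miR-200b read 737, 801, 1284 and 485 in MCD, against 271, 281, 273 and 278 in control. None of these groups overlapped, in contrast to miR-21. The control values of mmu-miR-200b lay below the negative control limit of each control array, so the size of its rise is uncertain. Over 26 alternative settings the rise was 1.44 to 3.23 for miR-200b and 1.56 to 3.15 for miR-200a.

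mmu-miR-34a, which is induced by p53 and represses Sirt1, read 481, 419, 528 and 405 in MCD, against 345, 314, 310 and 317 in control. It rose by 0.68 ± 0.09 (adjusted p = 0.000325, limma). miR-15b and miR-27a rose by 0.81 ± 0.10 and 0.83 ± 0.10. mmu-miR-101b read 497, 459, 495 and 455 in MCD, against 969, 820, 769 and 726 in control, and it fell by 1.13 ± 0.09 (adjusted p = 7.21e-06, limma). These 7 probes passed under all 26 alternative settings tried, and mmu-miR-21 passed under none of them. On the list as a whole, 11 to 19 probes passed under those settings.

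The miR-29 family, which represses collagen messages and falls in activated stellate cells, did not pass. mmu-miR-29a read 4805, 4023, 5166 and 3507 in MCD, against 4274, 4204, 3676 and 3244 in control. Its change was 0.36 ± 0.12 (adjusted p = 0.0851, limma), and it passed under 4 settings and turned to -0.03 under spike control scaling. miR-29b changed by 0.36 ± 0.11 (adjusted p = 0.0769) and passed under 7 settings, and miR-29c by -0.17 ± 0.10 (adjusted p = 0.402). miR-155, a miRNA of activated leukocytes, changed by 0.13 ± 0.12 (adjusted p = 0.602). miR-221 and miR-222, which share a seed and repress Cdkn1b, changed by 0.14 ± 0.11 and -0.08 ± 0.10 (adjusted p = 0.514 and 0.703). With mmu-miR-21, these stood in the middle of the list, between the risers and the fallers.

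**Figure D4:**
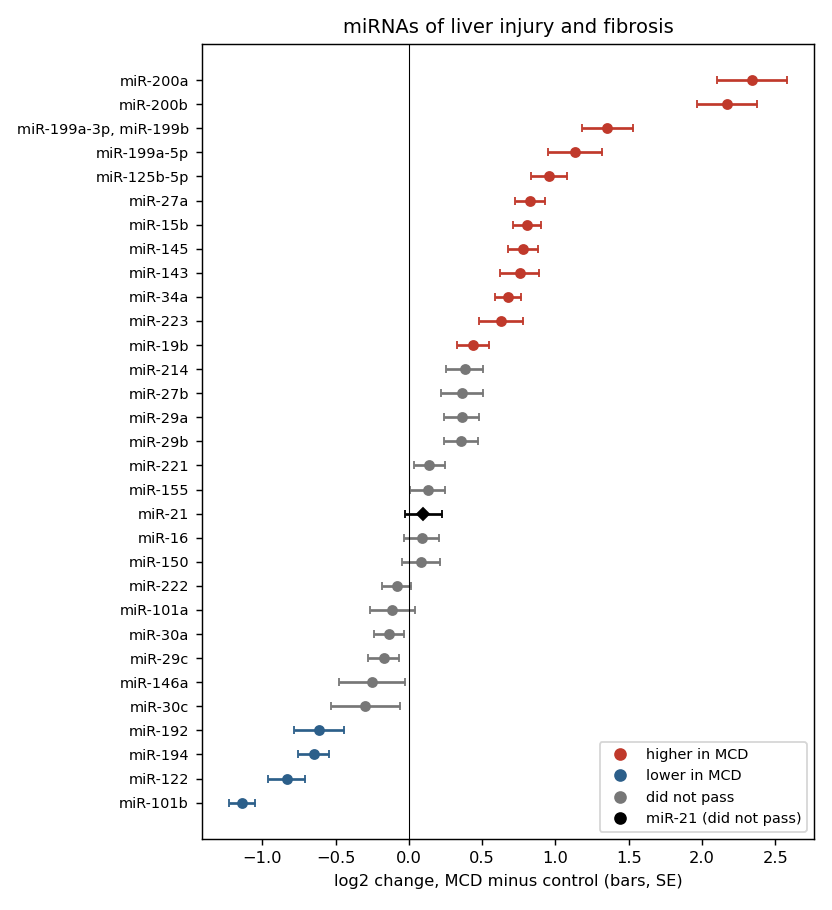
Log2 change (MCD minus control, with SE bars) of the 31 probes of the liver injury and fibrosis list in order of size, red for higher and blue for lower in MCD, grey for those that did not pass and black for miR-21. miR-200a and miR-200b stand highest, miR-101b lowest, and miR-21 lies near 0 at 0.10.

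The difference of each listed probe from mmu-miR-21 was also taken within the array. For 8 of the other 30 probes every MCD array lay above every control array, and for 3 every MCD array lay below, against 68 of 1075 probes in all (6.33%). The exact permutation p was then 0.0286, the smallest possible, and after adjustment over 1075 probes it was 0.452 and no probe could pass. The counts are a description only.

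Marker miRNAs of several cell types moved with the diet. Many of them, such as miR-122, miR-194, miR-199a-5p, miR-143 and miR-223, are also on the injury and fibrosis list. The marker counts are therefore not independent of the counts on that list. miR-122 and miR-122* are strands of the same hairpin. Beside 5.76% of all tested probes higher and 4.46% lower, all 5 hepatocyte probes (miR-122, miR-122*, miR-192, miR-194 and miR-148a) were lower, and their summed intensity was 21437 to 28363 in MCD, against 42085 to 55413 in control. Of 6 mesenchymal probes, 5 were higher (4196 to 8374 in MCD and 2919 to 3639 in control), as were 4 of 8 leukocyte probes (2590 to 3468 in MCD and 2412 to 2769 in control). Of 5 bile duct probes 3 were higher (1825 to 3922 in MCD and 1317 to 1337 in control), and of 2 endothelial probes 1 was higher (4025 to 6246 in MCD and 3181 to 4137 in control). None of the 3 erythroid probes passed (1288 to 2471 in MCD and 1001 to 2190 in control). Several of these calls depended on the settings. Over the 26 alternatives 1 to 5 hepatocyte, 3 to 6 mesenchymal, 1 to 4 leukocyte, 2 to 3 bile duct, 0 to 1 endothelial and 0 to 1 erythroid probes passed, with miR-122 lower in all 26. With 1 array left out, the hepatocyte count was 3 without MCD 2, MCD 3 or control 3 and 2 without control 1, control 2 or control 4. The leukocyte count was then 1 without control 1 and 2 without MCD 1, MCD 2, MCD 3, control 3 or control 4. The endothelial call, miR-126-3p, was lost in 6 settings. An array gives no true zero, and the marker probes nearest to it were miR-429 and miR-141, above the blank limit on all 4 MCD arrays but on 1 and 2 of the control arrays, and miR-155, above it on 3 arrays of each group. miR-429, called higher, and miR-141 thus met the rule for testing through the MCD arrays, so the bile duct count depends in part on this filter. With the filter on all 8 arrays, 2 bile duct probes were tested and 2 were higher. With the filter on negative controls, 64 of all 232 tested probes were higher and 51 lower. All 5 hepatocyte probes were then lower. Higher were 6 of 6 mesenchymal, 3 of 6 leukocyte, 3 of 3 bile duct, 1 of 2 endothelial and 0 of 1 erythroid probes. MCD 4, the array with the lowest mmu-miR-21 intensity, had the lowest hepatocyte, leukocyte, mesenchymal and bile duct sums of the MCD arrays, the highest erythroid sum (2471) and an endothelial sum of 4325, above that of MCD 2 (4025). The part of these shifts in the level of miR-21 was not tested.

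All MCD arrays were read at position 2 of the slide and all control arrays at position 1, so position and diet cannot be told apart. Between 42.4% and 91.9% of the probes of an array exceeded the blank limit and between 18.0% and 35.6% the negative control limit.

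The probes whose log2 level followed that of mmu-miR-21 most closely over the 8 arrays were miR-130a* (Pearson r = 0.90), miR-98 (0.85), miR-466c-5p (0.84), miR-500 (0.79) and miR-205* (0.78). They exceeded the negative control limit on 1, 5, 1, 2 and 0 arrays, so most of them were dim. For mmu-miR-21* the closest were let-7c-1* (0.88), miR-871-3p (0.87), miR-467b* (0.85), miR-3057-3p (0.81) and miR-466m-3p (0.81), also dim probes. These values are picked as the highest of all tested probes and share the normalization of the arrays. The 2 miR-21 strands did not follow each other (r = -0.07).

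SMAD proteins were described in human cells to contact the element CAGAC in the stem of the miR-21 hairpin. The element is shown in capitals in the guide and in the other miRNA holding it that changed.
mmu-miR-21a-5p: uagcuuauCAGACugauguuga
mmu-miR-199a-5p: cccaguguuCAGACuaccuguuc
It was searched as the letters CAGAC, read 5′ to 3′ in the mature RNA, and was found in 28 of 1679 mature names (1.67%), at positions 9 to 13 of the guide and not in the passenger. Only 328 of these names matched the array as written, and other probes with older names were not searched. With mmu-miR-21 added under its older name, 8 probes held the element and 7 were tested. Of these, 1 was higher and 0 lower, beside 5.76% and 4.46% of all tested probes. One of the 7, miR-3968, was the brightest probe on every array and quantile normalization sets its change to 0. The higher one was miR-199a-5p (1.13 ± 0.18, limma, adjusted p = 0.00131). A match is a description of letters and not of binding.

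**Figure D5:**
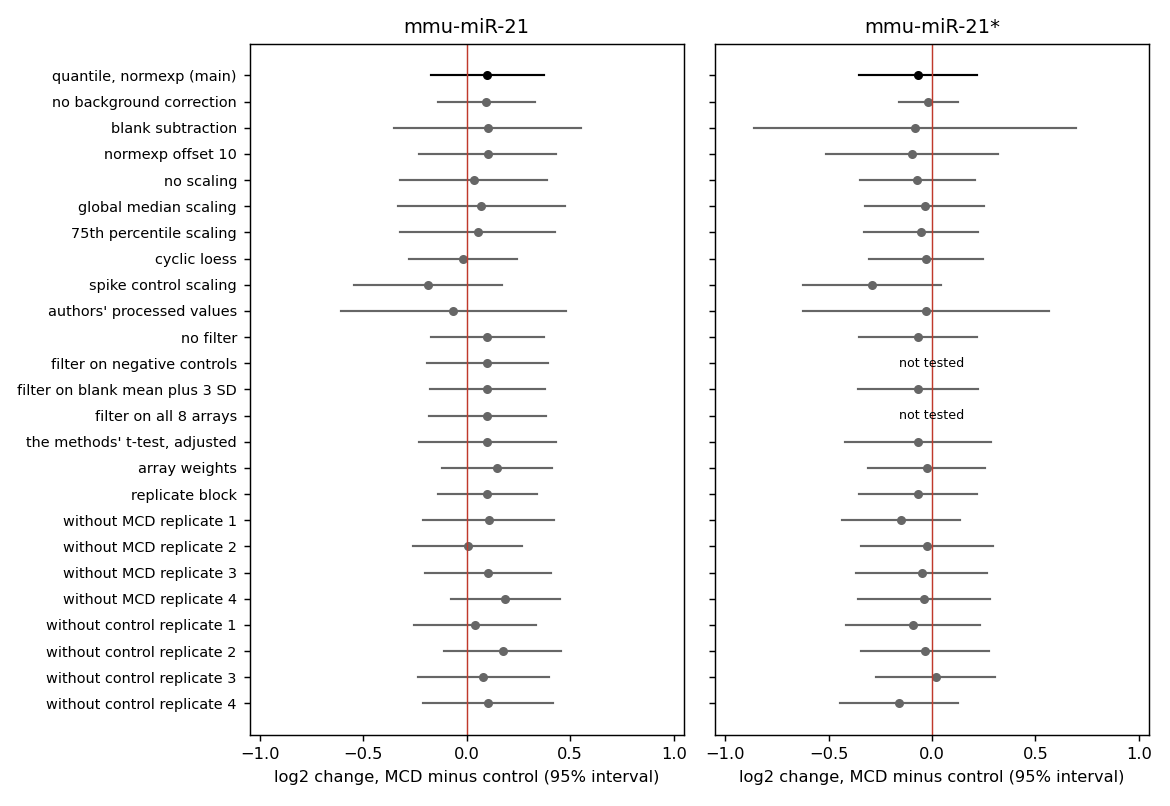
Log2 change (MCD minus control, points) with its 95% interval (bars) for mmu-miR-21 (left) and mmu-miR-21* (right) under the reported processing (top, black) and each alternative (grey). Every interval crosses 0 for both strands, and the points for mmu-miR-21 lie between -0.19 and 0.19.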

How the data were processed

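Total RNA from each liver was hybridised to a one-colour mouse miRNA chip. The deposited scanner files hold, per the file headers, the median intensity of each spot and a local background intensity, uncorrected and on a linear scale. The labels name the dye Hy5 and the scanner columns a green wavelength, and the sources do not settle which was read. The authors also deposited processed intensity values, which equal the spot minus a trimmed blank mean times 1 factor per array, within 0.0254% of each value, with a median of 45 on each array. They were used as an alternative, with a value on every array for 573 probes.

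Intensities of all 3136 spots were corrected with normexp (offset 50), log2-transformed and quantile-normalized using the 1135 miRNA probes (limma 3.58.1, R 4.3.3). A probe was tested where at least 4 of 8 arrays had its spot above the blank limit, the mean plus 2 SD of 1818 blank spots (1076 probes). Groups were compared with lmFit and eBayes, two-sided, with Benjamini-Hochberg adjustment over all tested probes or hairpins and a threshold of 0.05. Single values per array were compared by exact permutation over 70 splits. The number of arrays limits the precision. The fits were tested on simulated data.

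The members, lists and tests were chosen with earlier results of these data known. Named probes were both strands, miRNAs within 4 edits or with a shared seed, the 5 most correlated probes of each strand, the neighbours in brightness, 4 hairpins with the smallest p, and of the fibrosis list the 6 with the smallest p, miR-29, miR-34a, miR-155, miR-221 and miR-222. miR-21b, miR-22, miR-16 and miR-199a-5p were named after their values or sequences were seen. Alternatives covered background correction, scaling, filters, tests, array weights, a replicate block and each array left out. All were chosen with earlier results known. The pairing of the authors' values with the methods' t-test was added after seeing the data.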

Additional observations from a re-analysis of the deposited data

How the results depend on the processing

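Neither strand nor their difference passed under any alternative tried (lowest adjusted p 0.415, 0.205 and 0.479 for mmu-miR-21, mmu-miR-21* and the strand difference). The change of mmu-miR-21 kept its sign in 22 of 26 settings. It was -0.017 under cyclic loess, -0.19 under spike control scaling, where the median of all probes moved by -0.24, and -0.065 on the authors' values with limma or the t-test. It ranged between 0.0038 (without MCD 2) and 0.19 (without MCD 4) with 1 array left out. mmu-miR-21* kept its sign in 23 of 24 settings, was -0.29 under spike control scaling, and ranged between -0.16 and 0.018 (without control 3) with 1 array left out. It was not tested under the negative control filter or the filter on all 8 arrays, nor was the strand difference. The strand difference kept its sign in 22 of 24 settings, was -0.036 on the authors' values in both tests, and ranged between 0.03 and 0.26 with 1 array left out. The cause of these changes of sign was not tested. Ranks on the authors' values are equal by construction and test nothing.

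The 110 probes past the threshold became 70 after blank subtraction, 216 by the methods' t-test unadjusted and 58 after adjustment, and 73 (without control 4) to 118 with 1 array left out. Higher probes made up 56.4% of the calls, against 26.8% under spike control scaling (34 higher, 93 lower), 68.4% under global scaling (65 and 30), 67.4% under 75th percentile scaling (64 and 31) and 65.7% after blank subtraction (46 and 24). With the replicate number as a block, 118 probes passed, and mmu-miR-21 had an adjusted p of 0.655. Whether the numbers pair the samples could not be decided from 4 arrays per diet. Same-numbered arrays deviated together with r between -0.01 and 0.10, and 2 of 4 correlated best with their own number. A slide block was not run, because the files name no slide.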

Other observations

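6 probes were brighter than mmu-miR-21 on every array, and they were picked after their values were seen. mmu-miR-122, the main miRNA of hepatocytes, read 18846, 18120, 18382 and 14535 in MCD, against 40551, 39849, 36622 and 30938 in control, with no overlap. Its log2 change was -0.83 ± 0.13 (SE, limma, adjusted p = 0.000955). Quantile normalization gave it the same level on all control arrays (SD 0). The spread of this probe between arrays therefore came from the MCD arrays only. Its SE and p also draw on the variance of the other tested probes, and the size of the change depends on the normalization. mmu-miR-5100 read 34429, 24537, 28739 and 27645 in MCD, against 27052, 23409, 21630 and 20608 in control, and the groups overlapped. Its rank was the same on all arrays of a diet, so quantile normalization fixed its log2 change of 0.69, and no test is given. miR-3968 was the brightest probe on every array, so its change was set to 0 in the same way. The changes of miR-690 (0.38), miR-720 (-0.24) and miR-29a (0.36) did not pass.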
